A study of Homo sapiens with 9 samples.

Results

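The comparison described here is SW1353 cells given PBSL and then interleukin-1β (IL-1β) against untreated SW1353 cells, with 3 libraries in each group, so 6 of the study's 9 libraries. Members of the comparison were taken by the library titles, and of the 19389 entries in the deposited table, the 11924 that reached a value of 1 in 3 or more of the 9 libraries were tested. SW1353 is a human chondrosarcoma line that is often used in place of chondrocytes. PBSL is named in the series title as coming from larvae of Protaetia brevitarsis seulensis, a beetle. All cells were first cultured for 24 h. The treated cells received PBSL for 2 h and then IL-1β at 20 ng/mL for 20 h. The protocol lists PBSL at 50, 100 and 200 µg/mL beside a dose of 0, and which of these the sequenced cells received is not stated. The other 3 libraries are cells given IL-1β alone, and they serve here to separate what IL-1β had already changed from what differed when PBSL came first. No cells given PBSL without IL-1β were analysed here, so "with both agents" is the most that can be said of any change below. Whether the replicates of a group were separate cultures is not stated, and p-values therefore measure only the spread between these libraries, which may be technical.

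IL-1β is an inflammatory cytokine that signals through its receptor to the transcription factor NF-κB and to stress kinases. In cartilage cells it is known for switching on chemokines, cytokines and matrix-degrading proteases, among them the collagenases and stromelysin, while lowering the synthesis of cartilage matrix. Interferon-stimulated genes can follow as a later layer, through interferon made by the cells and factors such as STAT2 and IRF9.

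Values are the authors' deposited expression values, whose low end scales inversely with transcript length as a value per length would. The labels do not say whether this is FPKM or TPM. Values are given per library in the order of replicates 1, 2 and 3. Fold changes were fitted by limma on log2(value + 1) over all 9 libraries, and a gene is called where its Benjamini-Hochberg adjusted p over all tested genes was under 0.05. Adding 1 understates the change of genes near 0. The summed values ran from 523758 to 553196 per library, and between 11562 and 11727 genes reached a value of 1. The number of reads is unknown. The first principal component (68.7% of the variance) set untreated libraries apart from both treated groups. On the second (16.6%), IL-1β libraries lay between -12.4 and -11.5, while PBSL replicates 2 and 3 lay at 18.2 and 16.8. PBSL replicate 1 lay at 0.58, between these and within the range of the untreated libraries (-2.41 to 2.37). Some of the results below, but not all, are also given without it. Several defining markers of chondrocytes were at or near 0. COL2A1, the type II collagen gene, reached at most 0.027 in any library, COL9A1 at most 0.013 and MATN1 at most 0.025, whereas SOX9 had a mean of 12.02 in untreated cells. Of 7 endothelial markers 7 were under 1 in every library, and of 7 lymphocyte markers 5 were. The summed level of 10 epithelial markers, mostly KRT8 and KRT18, was between 144 and 166 in untreated cells, between 81 and 82.2 with IL-1β and between 60.2 and 80.4 with both agents. The sum of 8 macrophage markers, nearly all of it CD68, was 71.9 to 79.4, 100.2 to 103 and 85.4 to 91 in the same groups. The part of other cell types in the results was not tested.

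With both agents, 2658 genes were higher (22.3% of those tested) and 2307 were lower (19.3%) than in untreated cells, so 41.6% of all tested genes were called. Most of these changes were small. The median size among called genes was 0.35 on the log2 scale, a 1.28-fold change, and only 202 genes were at least 2-fold higher (1.69%) and 135 at least 2-fold lower (1.13%). In 48.2% of the tested genes, whether called or not, the values of the treated and untreated libraries were clear of each other. A share of members called therefore has to be read against these backgrounds. These are bulk samples, in which a change in the share of cells in some state and a change in RNA per cell cannot be told apart. Against a minimum change of 1.2-fold (limma's treat), 628 genes were higher and 676 lower. Of the 11924 tested genes, 283 had an untreated mean under 1, and 139 of these were called higher and 1 lower. Such genes passed the filter only through treated libraries, and they make up 63 of the 202 genes that were at least 2-fold higher.

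Each of the 4965 called genes was placed by 2 further comparisons: IL-1β alone against untreated cells, in which 32.1% of tested genes were called (16.2% higher, 16.0% lower), and both agents against IL-1β alone, in which 22.5% were called (11.5% higher, 11% lower). The last of these tests the difference between the effects with and without PBSL, since the shared untreated libraries cancel. Of the 2684 genes called between the treated groups, 18 (0.151%) were at least 2-fold lower with both agents and 0 (0.0%) at least 2-fold higher. Kept genes, 2123 in number (17.8% of those tested), were called with IL-1β alone in the same direction and were not called as different between the treated groups. Of these 1010 were higher (8.47%) and 1113 lower (9.33%). Eased genes, 265 (2.22%), were altered less with both agents than with IL-1β alone. Exceeded genes, 299 (2.51%), were altered more. Genes seen with both agents only, 1104 (9.26%), were not called with IL-1β alone and differed from it in the same direction. A further 1149 (9.64%) were called with both agents, were not called with IL-1β alone and could not be set apart from it. Finally 25 genes (0.21%) crossed, being called in opposite directions. Outside the called genes, 488 (4.09%) returned, that is, IL-1β moved them, both agents differed from IL-1β, and no difference from untreated cells was called.

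The direction of these classes was uneven. Of the eased genes, 227 were higher than in untreated cells (1.9%) and 38 lower (0.319%), while of the exceeded genes 75 were higher (0.629%) and 224 lower (1.88%). The genes seen with both agents only were higher in 701 (5.88%) and lower in 403 (3.38%). Large increases were those that IL-1β also made. Of the 202 genes at least 2-fold higher, 112 were kept, 68 eased and 22 exceeded, and 0 belonged to the genes seen with both agents only. Of the 135 genes at least 2-fold lower, 60 were kept, 66 exceeded, 2 eased and 7 seen with both agents only. The rule cannot place genes near the threshold firmly, and an IL-1β effect that was not called is not an effect of 0. For 634 of the 1104 genes seen with both agents only (442 higher, 192 lower), the 95% interval of the IL-1β effect lay within a 1.2-fold change in either direction. Without PBSL replicate 1 the class grew to 1685 genes and held 90.4% of the original ones. Without PBSL replicate 2 it shrank to 555, and without an IL-1β library in turn to between 622 and 696. Against a 1.2-fold minimum in each of the 3 comparisons the class held 3 genes, of which 1 was among the 1104.

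**Figure D1:**
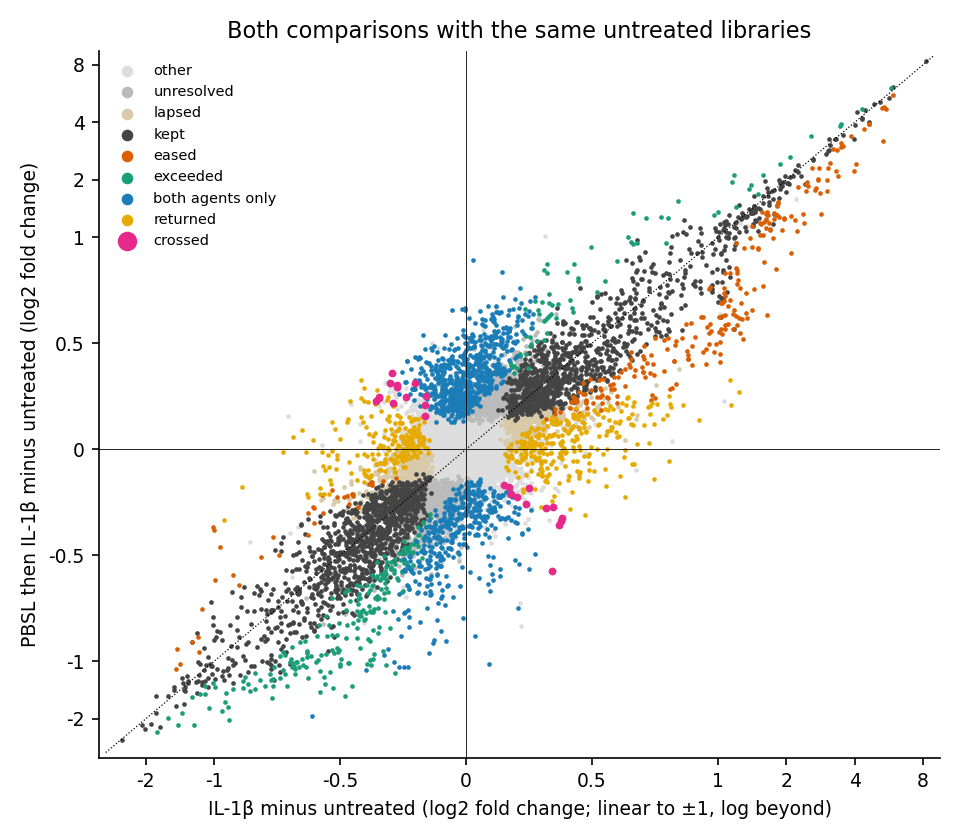
Log2 fold change of each of the 11924 tested genes in cells given IL-1β alone (horizontal) and in cells given PBSL then IL-1β (vertical), each against the same 3 untreated libraries; the dotted line marks equal values, points are coloured by class, and both axes are linear to 1 and logarithmic beyond. Shared untreated libraries alone pull points toward the dotted line; the eased genes (227 higher, 38 lower) lie nearer to 0 than it, the exceeded genes beyond it, and the genes seen with both agents only along the vertical axis.

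The promoters of some genes on which the results turn are printed here, because short motifs known from these pathways occur in them. Sequences are from RefSeq (GRCh38.p14), 60 bases of the strand of the gene 5′ to 3′ and ending before its start site, with the motif in capitals. A promoter of 300 bases (250 before the start, 50 after) was found for 9841 of the 11924 tested genes. The first set carries a kB-like motif, GGANTTTCC, the kind of site NF-κB binds.
CXCL8, chr4:73740453-73740512, plus strand: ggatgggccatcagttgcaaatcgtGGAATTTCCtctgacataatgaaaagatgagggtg
CXCL3, chr4:74038733-74038792, minus strand: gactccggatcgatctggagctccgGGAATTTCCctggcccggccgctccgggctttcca
CXCL5, chr4:73998733-73998792, minus strand: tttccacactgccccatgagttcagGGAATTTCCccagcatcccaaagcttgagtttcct
The next set carries TTTCNNTTT, which resembles the interferon-stimulated response element, in direct or reverse form.
ISG15, chr1:1013366-1013425, plus strand: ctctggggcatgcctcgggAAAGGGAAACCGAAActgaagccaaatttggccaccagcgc
IFI27, chr14:94110617-94110676, plus strand: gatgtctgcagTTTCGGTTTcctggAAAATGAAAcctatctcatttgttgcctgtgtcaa
BST2, chr19:17405719-17405778, minus strand: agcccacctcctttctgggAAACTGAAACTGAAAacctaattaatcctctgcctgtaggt
Replication genes are shown for an E2F-like motif, TTTCCCGC or TTTGGCGC.
TYMS, chr18:657589-657648, plus strand: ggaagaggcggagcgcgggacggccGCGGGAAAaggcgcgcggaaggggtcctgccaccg
PCNA, chr20:5126647-5126706, minus strand: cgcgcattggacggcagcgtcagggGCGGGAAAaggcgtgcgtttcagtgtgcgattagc
GINS2, chr16:85688955-85689014, minus strand: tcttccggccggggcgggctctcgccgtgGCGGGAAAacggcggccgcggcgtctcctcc
Mitotic genes are shown for TTTGAA, the core of the cell cycle genes homology region (CHR).
PLK1, chr16:23678829-23678888, plus strand: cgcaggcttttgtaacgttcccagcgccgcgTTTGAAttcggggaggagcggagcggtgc
CCNB2, chr15:59105086-59105145, plus strand: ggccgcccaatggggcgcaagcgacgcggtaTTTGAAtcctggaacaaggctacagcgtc
BUB1B, chr15:40161009-40161068, plus strand: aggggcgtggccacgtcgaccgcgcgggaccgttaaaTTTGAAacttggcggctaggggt

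Motifs were searched on both strands, and a match is a description of letters and not of a bound site. The kB-like motif was in 1.68% of the promoters of all tested genes, in 12.3% of those of genes at least 2-fold higher with both agents and in 7 of 13 chemokine promoters. The interferon-type motif was in 7.22% of all, in 29% of the promoters of eased genes that were higher and in 25 of 34 promoters of the interferon list. The E2F-like motif was in 3.88% of all, in 6.97% of the promoters of genes higher with both agents only, in 10.8% of those of returned genes that IL-1β had lowered and in 16 of 27 promoters of the G1/S list. The CHR motif, searched for after the values were seen, was in 9.55% of all, in 20.6% of the promoters of genes higher with both agents only and in 12 of 19 promoters of the G2/M list. Median GC content of the promoters ran from 48.7% for the chemokines to 68% for the G1/S list, against 65.3% over all tested genes, and base composition alone changes how often AT-rich motifs occur. The part of base composition in these shares was not tested.

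NF-κB, chemokine and cytokine genes mostly stayed above untreated cells with PBSL present. Among them, 8 of 16 chemokines and 5 of 15 cytokines were lower than with IL-1β alone. Of 22 tested genes of the NF-κB list (subunits, inhibitors and feedback), 21 were higher than in untreated cells and 0 lower, with a median log2 fold change of 1.6 against 0.03 over all tested genes. In 17 of them the IL-1β change was kept. SOD2, a mitochondrial superoxide dismutase that NF-κB induces strongly, read 36.8, 35.7 and 34.6 in untreated cells and 1267, 1219 and 1334 with both agents. IL-1β alone gave 1333, 1335 and 1307, so the treated groups overlapped. NFKBIA, the inhibitor that NF-κB makes to restrain itself, rose from 26 ± 0.688 to 127 ± 9.94 (mean ± SD, n = 3), and TNFAIP3, another brake, from 2.09 ± 0.64 to 28.5 ± 2.14. The exceptions in the list were ICAM1, an adhesion molecule, with BIRC3 and TNFAIP2, which were eased by 0.54, 0.36 and 0.39 on the log2 scale, and CD83, which exceeded.

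Chemokines, which attract leukocytes, were higher in 14 of 16 tested genes and lower in 1, CCL26, with a median log2 fold change of 2.11. Of the 20 listed, 4 were under 1 in every library. Members near 0 in untreated cells, such as CXCL5, CCL3 and CXCL10, passed the filter only through treated libraries, which favoured a call of higher. With IL-1β alone the median was 3.01. Against IL-1β alone 8 were lower (50%, against 11% of all tested genes) and 0 higher. Of the 16, 7 were eased, all of them higher, and 7 were kept, 6 higher and CCL26 lower. A further 1 was not called with IL-1β alone and could not be set apart from it, and 1 returned. CXCL8 (chromosome 4, 73740506 to 73743716, GRCh38), the neutrophil attractant, had the largest fold change of all tested genes. Its values were 2.73, 1.94 and 2.22 in untreated cells, 994, 1024 and 1044 with IL-1β and 1062, 1079.8 and 1108 with both agents, a log2 change of 8.37 (SE 0.07, adjusted p = 5.39e-15). All 3 libraries with both agents lay above all 3 with IL-1β alone, but the difference of 0.09 was not called (adjusted p = 0.431). CCL2, which attracts monocytes, went from 3.17, 3.15 and 3.65 to 135, 128 and 154, beside 125, 128 and 122 with IL-1β alone, and was kept too.

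CXCL5, in the same region of chromosome 4 as CXCL8 and CXCL3 and with a kB-like motif like theirs, was eased. It read 0.167, 0.137 and 0.132 in untreated cells, 52, 51.9 and 52.1 with IL-1β and 31.6, 27.3 and 28.4 with both agents. The treated groups were clear of each other (difference -0.82, SE 0.06, adjusted p = 0.000169), yet the gene was still 26.2-fold above untreated cells on the fitted scale. CXCL3 was eased by 0.38, from 68.1 ± 1.56 to 52.1 ± 3.11, which was not called with a pseudocount of 0.1 (adjusted p = 0.159). CCL8, a monocyte attractant, lost the most of the listed chemokines, from 7.76, 7.8 and 8.22 with IL-1β to 2.78, 2.36 and 2.92 with both agents, a difference of -1.28. CCL3 and CXCL10 were listed at 0 in all untreated libraries. With both agents CCL3 read 7.99, 6.1 and 6.54 and CXCL10 6.8, 2.97 and 4.42, against 11.4, 10.6 and 8.95 and 7.19, 6.84 and 9.31 with IL-1β alone. How reads shared by similar genes such as CXCL1 and CXCL3 were counted is not stated, so the values of such genes are uncertain.

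Cytokines were higher in 13 of 15 tested genes and lower in 0, with a median log2 fold change of 3.05, and 7 were kept, 5 eased and 1 exceeded. The list holds 20 genes, and tested members near 0 in untreated cells, such as IL6 and CSF2, passed the filter only through treated libraries. Against IL-1β alone 5 were lower (33.3%, against 11% of all tested genes) and 1 higher (6.67%, against 11.5%). IL1B, the cytokine given to the cells and also made by them, rose from 0.824, 1.26 and 0.674 to 117, 143 and 134, and the IL-1β libraries read 108, 111 and 115. The colony-stimulating factor CSF2, or GM-CSF, was kept in the same way, at 25.8, 29.4 and 23.8 against 20.9, 23.4 and 23.5 with IL-1β alone and 0, 0 and 0.289 in untreated cells. IL6 (chromosome 7, 22725884 to 22732002), a cytokine of the acute phase response, was eased. Its values were 0.34, 0.14 and 0 in untreated cells, 43.3, 43.8 and 46.6 with IL-1β and 37.4, 23.6 and 30.4 with both agents, so even the lowest library with both agents was far above untreated cells (log2 fold change 4.75, adjusted p = 2.62e-10). The difference from IL-1β alone was -0.56 (SE 0.14, adjusted p = 0.0175). It was not called with no filter, with a pseudocount of 0.1 or without IL-1β replicate 2, IL-1β replicate 3 or PBSL replicate 2 (adjusted p up to 0.313). IL32 was eased by 0.71 and IL11 by 0.65. IL36G was the exceeded cytokine, at 24.5, 32.8 and 35.8 against 22.9, 22.4 and 24.2 with IL-1β (adjusted p = 0.0463). That call was lost in 10 alternatives, with an adjusted p of up to 0.313.

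IL1RN encodes the natural antagonist that occupies the IL-1 receptor without activating it. It read 0.537, 0.509 and 0.361 in untreated cells, 7.22, 7.13 and 9 with IL-1β alone and 10.4, 17.4 and 16.7 with both agents. The groups did not overlap, and IL1RN exceeded the IL-1β effect by 0.82 (SE 0.16, adjusted p = 0.00542). Of 8 tested IL-1 receptor and antagonist genes 3 were higher (37.5%, against 22.3% of all tested genes) and 0 lower than in untreated cells. IL1RAP, the receptor's accessory chain, and IRAK2, a signalling kinase, were kept, with log2 fold changes of 0.58 and 1.93.

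**Figure D2:**
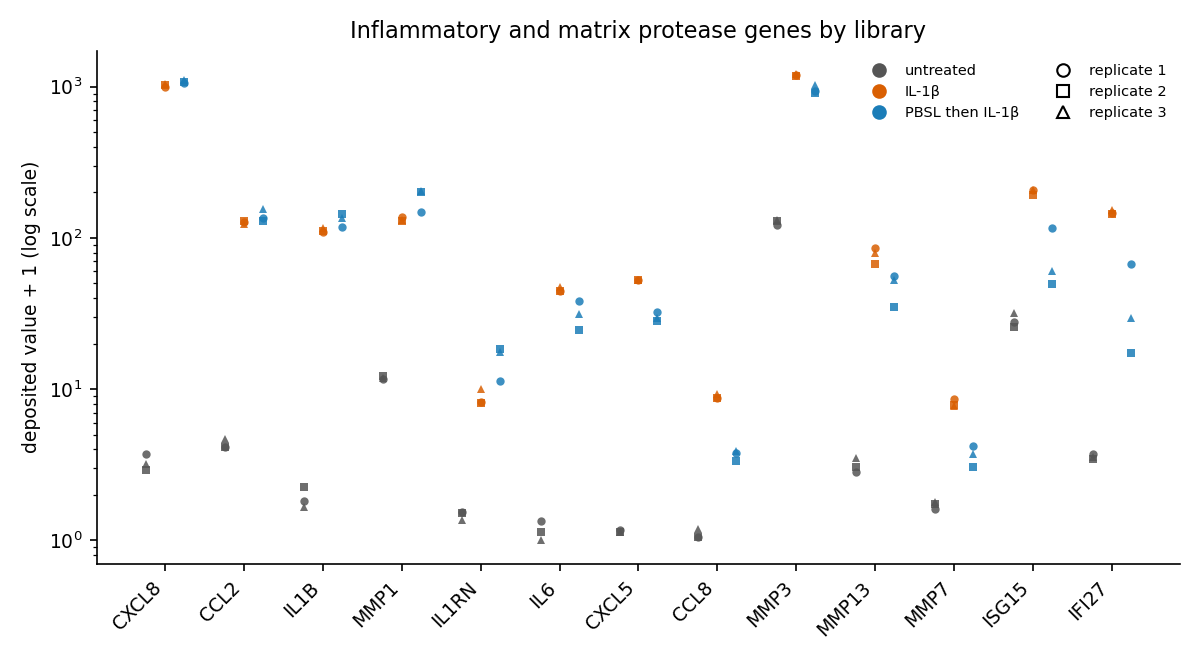
Deposited values plus 1 (logarithmic axis) of 13 genes in each of the 9 libraries, grey for untreated cells, orange for IL-1β and blue for PBSL then IL-1β, with a symbol for each replicate number. CXCL8, CCL2 and IL1B are high in both treated groups, MMP1 and IL1RN are higher with both agents, and the genes from IL6 to IFI27 lie between untreated and IL-1β levels.

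Of 27 tested matrix protease genes, 13 were higher (48.1%) and 5 lower (18.5%) than in untreated cells (median log2 fold change 0.2). Over all tested genes these shares were 22.3% and 19.3%. In the classes 9 were kept, 4 eased, 3 returned and 3 exceeded, and of the exceeded genes 2 were higher and 1 lower. Against IL-1β alone 10 were lower (37%, against 11% of all tested genes) and 2 higher (7.41%, against 11.5%). MMP1, the interstitial collagenase, exceeded: it read 10.6, 11.2 and 10.8 in untreated cells, 137, 127 and 129.7 with IL-1β and 147, 200.3 and 203 with both agents (difference 0.47, SE 0.10, adjusted p = 0.00924). MMP13, the other collagenase known for cleaving type II collagen, was eased, from 84.4, 66.1 and 78 with IL-1β to 55.2, 34.1 and 51.9 with both agents, against 1.81, 2.08 and 2.53 in untreated cells. MMP3, or stromelysin 1, was eased as well, from 1203, 1170.2 and 1211 to 932, 912 and 1020.3, against 120.1, 129 and 130.3. These 3 genes lie in a cluster on chromosome 11, between 102789920 and 102955734 in GRCh38, and did not move in the same direction relative to IL-1β alone.

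MMP7, or matrilysin, was eased, reading 0.604, 0.746 and 0.78 in untreated cells, 7.54, 6.8 and 6.79 with IL-1β and 3.22, 2.04 and 2.71 with both agents (difference -1.15, adjusted p = 0.000839). MMP12, the macrophage elastase, was eased by 0.68. MMP9, a gelatinase, exceeded, at 10.8, 20.6 and 13.9 against 8.42, 10.1 and 9.84. Cathepsin S, encoded by CTSS, was kept at 31.8, 33.8 and 37.6 against 2.58, 2.62 and 2.83 in untreated cells. ADAMTS4 and ADAMTS5, the aggrecanases, were too low to be tested. Among 10 protease inhibitors 4 were higher (40%) and 3 lower (30%) than in untreated cells, against 22.3% and 19.3% of all tested genes. Against IL-1β alone 6 were lower (60%, against 11% of all tested genes) and 2 higher (20%, against 11.5%). SERPINB2, which blocks plasminogen activators, exceeded at 265, 301 and 321 against 239.8, 230.5 and 248 with IL-1β and 3.92, 3.33 and 2.89 in untreated cells. Its difference from IL-1β alone (adjusted p = 0.0311) was not called with no filter, with the replicate block, or without any single IL-1β library, PBSL replicate 2 or PBSL replicate 3 (adjusted p up to 0.108). TIMP2, an MMP inhibitor, was lower than in untreated cells, at 138 ± 6.13 against 179 ± 8.97.

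Other IL-1β targets of cartilage biology included kept, eased and exceeded genes. PTGS2, which encodes cyclooxygenase 2, read 1.07, 0.765 and 0.676 in untreated cells and 7.75, 7.89 and 10.2 with both agents, beside 7.92, 7.42 and 7.94 with IL-1β alone. HAS2, a hyaluronan synthase, was kept with a log2 fold change of 2.10, and the complement gene C3 with 5.37. Of 13 tested complement genes 3 were kept and 3 eased, among them C1R and C1S, which encode the proteases of the first complement component and were lower by 0.43 and 0.71 than with IL-1β alone. PTGES, a prostaglandin E synthase, and TNFAIP6, a hyaluronan-binding protein, were eased by 0.34 and 0.53. The PTGES difference was not called with no filter, a pseudocount of 0.1 or the replicate block. Nor was it called without any single IL-1β library, PBSL replicate 1 or PBSL replicate 3 (limma adjusted p up to 0.0946). That of TNFAIP6 was not called with no filter or without IL-1β replicate 1 or PBSL replicate 2 (up to 0.0759). SOX9, the master transcription factor of chondrocytes, was lower in both treated groups, at 12 ± 0.68 in untreated cells and 8.92 ± 0.816 with both agents (log2 fold change -0.39, adjusted p = 0.00122), with no difference called between the treated groups (0.01, 95% interval -0.15 to 0.17). ACAN, the aggrecan gene, was low in every library and higher with both agents, at 1.44, 2.15 and 1.81 against 0.494, 0.454 and 0.554. Only 7 of 22 cartilage genes passed the filter, of which 3 were higher and 4 lower, with 5 kept and 2, COL11A1 and FGFR3, exceeded. These shares higher and lower were 42.9% and 57.1%, against 22.3% and 19.3% of all tested genes. The difference of FGFR3 from IL-1β alone was not called without any single IL-1β library or PBSL replicate 3 (limma adjusted p up to 0.0874).

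Among genes that fell and stayed down, LGR5, a Wnt-pathway receptor (chromosome 12, 71439770 to 71586310), read 12.7, 12.9 and 11 in untreated cells, 1.44, 1.34 and 1.05 with IL-1β and 1.15, 1.08 and 1.36 with both agents. That is a log2 change of -2.59 (SE 0.09, adjusted p = 1.42e-09), with the treated groups overlapping. BMP4, a bone morphogenetic protein, was kept at 9.84, 8.49 and 5.69 against 37.2, 36.1 and 40.9 in untreated cells. TCF7, a Wnt transcription factor, was lower by 1.26 on the log2 scale, and PFN2, an actin-binding profilin, by 1.05. Metallothioneins and zinc genes were higher in 8 of 8 tested members, 4 kept and 4 eased, with MT2A at 930.2 ± 41.5 in untreated cells and 4036 ± 803 with both agents. Glycolysis and hypoxia genes were higher in 17 of 27 (63%, against 22.3% of all tested genes) and lower in 0.

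The interferon layer was reduced but remained above untreated cells. Of 42 tested genes of the interferon list, 39 were higher than in untreated cells and 0 lower, with a median log2 fold change of 0.87, and 34 were lower than with IL-1β alone. In the classes 31 were eased, 8 kept and 3 returned, where eased genes that are higher make up 1.9% of all tested genes. With IL-1β alone 42 of 42 were higher than in untreated cells, with a median of 1.37. The 3 libraries with both agents differed from each other. Averaged over the list, the log2 change from untreated cells was 1.4 in replicate 1, 0.66 in replicate 2 and 1.04 in replicate 3, against 1.7 to 1.8 in the IL-1β libraries. All 3 were below every IL-1β library. Without PBSL replicate 1, 38 of 42 were higher than in untreated cells and 37 were lower than with IL-1β alone.

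IFI27, an interferon-induced mitochondrial protein, showed this most. Its values were 2.73, 2.48 and 2.58 in untreated cells, 146, 144 and 151 with IL-1β and 66.5, 16.2 and 28.7 with both agents, a drop of 2.18 on the log2 scale (SE 0.34, adjusted p = 0.00337). ISG15, a ubiquitin-like protein that is joined to other proteins during antiviral responses, read 26.6, 24.9 and 30.7 in untreated cells, 206, 190.4 and 207 with IL-1β and 116, 48.6 and 59.4 with both agents. Neither gene overlapped between any 2 groups, and in both the order of the replicates with both agents was the same, with replicate 1 highest and replicate 2 lowest. BST2, which tethers budding viruses, read 16.5, 5.41 and 8.98 with both agents against 36.3, 26.7 and 32.5 with IL-1β. OAS3, an antiviral enzyme, read 6.93, 7.07 and 7.28 in untreated cells, 44.1, 41.4 and 44.1 with IL-1β and 34.3, 20.0 and 26.1 with both agents.

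The transcription factors of this layer divided. IRF9 and STAT2 were eased by 0.46 and 0.50 on the log2 scale. IRF1, which IL-1β can induce directly, was kept at 24.3, 22.8 and 25.3 against 22.7, 22.9 and 24.2 with IL-1β and 9.43, 8.98 and 9.83 in untreated cells. The membrane protein genes IFITM2 and IFITM3 and the secreted glycoprotein gene LGALS3BP returned. IFITM3 read 192, 189 and 219 in untreated cells, 459, 420.4 and 446 with IL-1β and 312, 185 and 215 with both agents.

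Antigen presentation followed the same course at smaller size. Of 19 tested genes of class I presentation and the immunoproteasome, 15 were higher than in untreated cells and 0 lower (median log2 fold change 0.52), and 16 were lower than with IL-1β alone, 12 of them eased. B2M, the invariant chain of class I molecules, went from 853 ± 39 to 1104 ± 109.6, with 1471 ± 63.2 in IL-1β cells. TAPBP, which loads peptides onto class I molecules, read 90.4, 79.5 and 73.7 with both agents, 101, 106 and 107 with IL-1β and 44.4, 43.1 and 46.2 in untreated cells. HLA-C returned, with a change from untreated cells of 0.20 that was not called. The HLA genes resemble each other and their values are uncertain for that reason.

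The ATF4 list was nearer to the untreated level with both agents than with IL-1β alone. It holds genes of amino-acid synthesis, transport and transfer RNA charging that ATF4 induces under stress. Of 26 tested genes, 22 were higher with IL-1β alone. With both agents 6 were higher and 2 lower than in untreated cells (median log2 fold change 0.08), and 20 were lower than with IL-1β alone. The share higher than in untreated cells, 23.1%, was near the 22.3% of all tested genes, and the share lower was 7.69% against 19.3%. Against IL-1β alone the share lower was 76.9%, against 11% of all tested genes. In this list 15 genes returned, where 2.3% of all tested genes returned after being higher with IL-1β. ASNS, asparagine synthetase, read 65, 60.6 and 63.5 in untreated cells, 82, 85.9 and 85 with IL-1β and 64.8, 42.6 and 50.0 with both agents. CHAC1, which degrades glutathione, read 15.8, 14.4 and 17.2 in untreated cells, 25.9, 27.3 and 23.8 with IL-1β and 21.1, 12.6 and 12.7 with both agents, and the libraries with both agents straddled those of untreated cells. ATF4 itself read 173, 189.9 and 173 in untreated cells, 274, 281 and 276 with IL-1β and 239.9, 191 and 191 with both agents. For ATF4 the first PBSL library lay above all untreated ones and the others just above them. A difference from untreated cells that was not called does not show equal levels: of the 488 returned genes, 279 had a 95% interval for that difference within a 1.2-fold change. Without PBSL replicate 1, 5 genes of this list were higher and 7 lower than in untreated cells, and without PBSL replicate 2, 10 were higher and 0 lower, so the direction of what remained depends on these libraries.

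Besides the returned genes, the ATF4 list held 4 kept, 2 eased, 1 crossed and 1 seen with both agents only. Among the kept ones was CEBPB, a transcription factor of inflammation, at 137, 146 and 115 against 36.1, 37.7 and 39.6 in untreated cells. Endoplasmic reticulum chaperones and unfolded protein response genes were higher in 11 of 22 (50%, against 22.3% of all tested genes) and lower in 0. Against IL-1β alone 11 were lower (50%, against 11% of all tested genes). Other returned genes included FPR1, a receptor for formyl peptides, at 12.6, 12.8 and 15.6 in untreated cells, 21.5, 21.7 and 21.3 with IL-1β and 14.8, 12.3 and 12.7 with both agents. ABCC3, a transporter of organic anions, read 39.5, 39.4 and 42.5 in untreated cells, 56.6, 58.2 and 58.9 with IL-1β and 43.4, 33.6 and 36.4 with both agents, and it was called lower than in untreated cells without PBSL replicate 1. IGFBP3, which encodes a carrier of insulin-like growth factors, returned as well, with a difference from untreated cells of -0.07 and from IL-1β alone of -0.73.

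**Figure D3:**
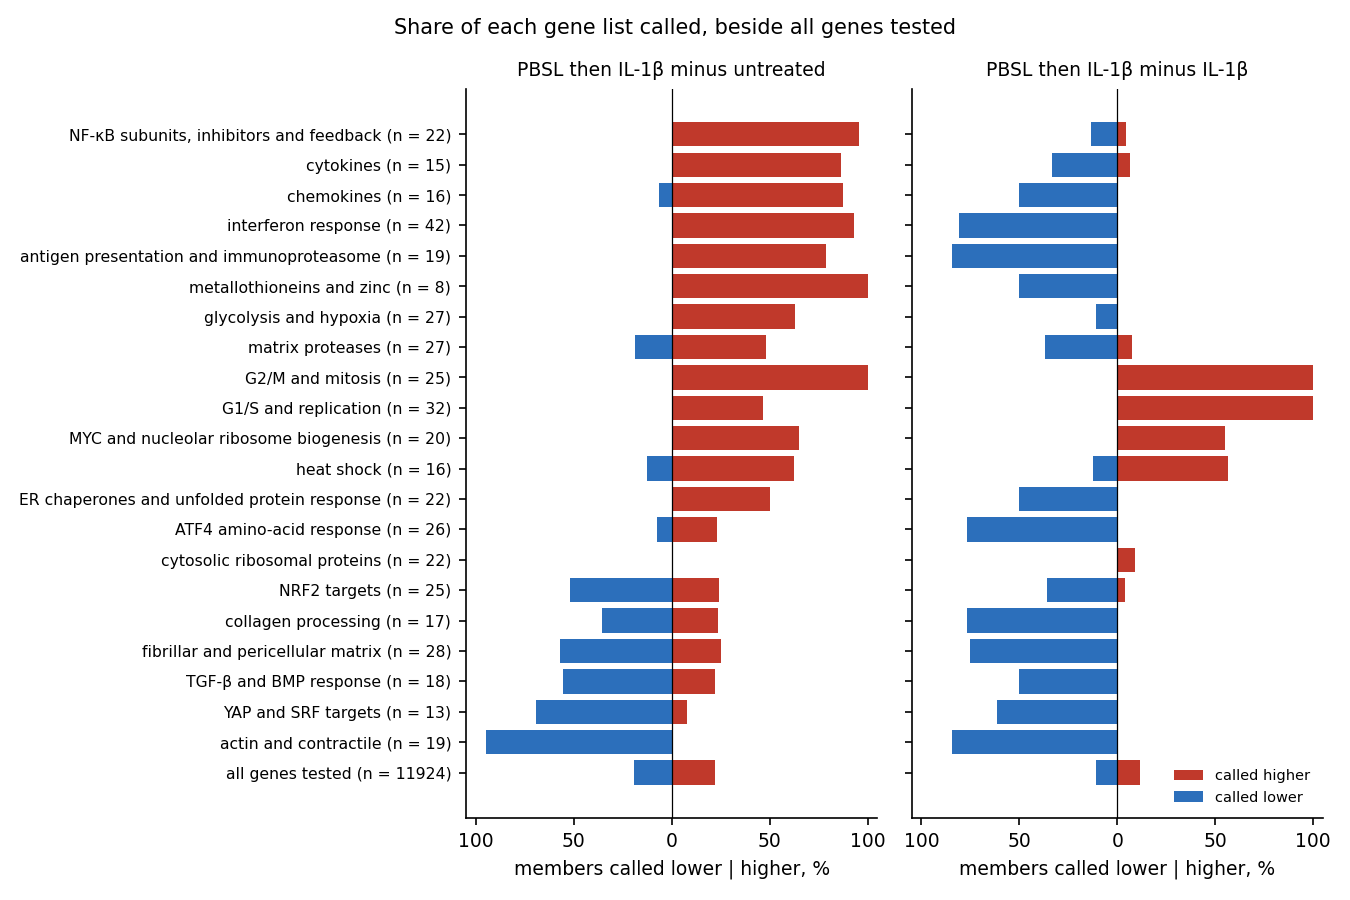
Share of the tested members of 21 gene lists, and of all 11924 tested genes in the bottom row, that were called higher (red, right) or lower (blue, left) with both agents against untreated cells (left panel) and against IL-1β alone (right panel). Mitosis genes were higher in 25 of 25 in both panels, while interferon genes were higher in the left panel (39 of 42) and lower in the right panel (34 of 42).

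Mitosis genes were higher with both agents and mostly not called with IL-1β alone. Of 25 tested genes of the G2/M list, 25 were higher than in untreated cells, with a median log2 fold change of 0.57, and the same 25 were higher than with IL-1β alone. IL-1β alone raised 3 of them. In the classes 22 were seen with both agents only and 3 exceeded, where 5.88% of all tested genes were higher with both agents only. The count of 25 against untreated cells held under every alternative that was run except the 1.2-fold minimum, which left 17. Against IL-1β alone, where the median difference was 0.46, the count ran from 22 to 25 when single libraries were left out, and under the 1.2-fold minimum it was 0.

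PLK1, a kinase that drives mitotic entry and whose promoter is printed above, read 76.6, 68.4 and 66.5 in untreated cells, 74.8, 75 and 77.1 with IL-1β and 100.4, 123 and 109 with both agents (log2 fold change 0.64, SE 0.07, adjusted p = 3.62e-05). Every library with both agents lay above all 6 others. CCNB1, the cyclin that activates the mitotic kinase, read 154, 142 and 133 in untreated cells, 159, 157 and 149 with IL-1β and 204, 240.1 and 244 with both agents, and CDK1, that kinase, 67.6, 68.4 and 57.9 in untreated cells, 70.4, 71 and 72.8 with IL-1β and 88.5, 99.8 and 101 with both agents. FOXM1, a transcription factor of G2/M genes, read 71.8, 63.4 and 63.7 in untreated cells, 62.7, 62.7 and 60.9 with IL-1β and 80.9, 88.3 and 86.1 with both agents. AURKA, the centrosome kinase, and HMMR, a hyaluronan-binding protein of the spindle, exceeded a small IL-1β effect, which was not called without untreated replicate 3 for either gene (highest adjusted p over the alternatives 0.0587 for AURKA and 0.0619 for HMMR), nor without IL-1β replicate 1 for AURKA or IL-1β replicate 3 for HMMR. AURKA read 55, 53.8 and 47.9 in untreated cells, 66.9, 61.6 and 66.3 with IL-1β and 82.9, 104 and 97.4 with both agents. Changes in the list ran from 0.36 for FOXM1 to 0.84 for AURKA, so none reached 2-fold.

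Replication genes of the G1/S list were near or a little above the untreated level with both agents, and part of them were below it with IL-1β alone. Of 32 tested genes of the G1/S list, 13 were lower with IL-1β alone and 0 higher. With both agents 15 were higher than in untreated cells and 0 lower (median log2 fold change 0.25), and 32 of 32 were higher than with IL-1β alone. The classes were 13 with both agents only, 11 returned and 2 crossed, where 1.79% of all tested genes returned after being lower with IL-1β. PCNA, the sliding clamp of DNA polymerase, returned, reading 118, 110.0 and 98.8 in untreated cells, 84.4, 79.9 and 79.4 with IL-1β and 108, 145 and 138 with both agents. Its lowest library with both agents was replicate 1, within the untreated range, and the others were above it. GINS2, part of the replicative helicase, read 11.1, 10.1 and 9.8 in untreated cells, 6.99, 7.21 and 7.47 with IL-1β and 10.4, 13.7 and 12.8 with both agents, and without PBSL replicate 1 or untreated replicate 1 it was called higher than in untreated cells.

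RRM2 and TYMS, which make DNA precursors, were seen with both agents only. RRM2 read 87.8, 80.7 and 71 in untreated cells, 88.8, 83 and 91.9 with IL-1β and 119, 157 and 155 with both agents (log2 fold change 0.83, adjusted p = 6.45e-05). TYMS read 117, 112 and 105 in untreated cells, 92.7, 94.1 and 96.1 with IL-1β and 127, 159 and 164 with both agents, and its IL-1β effect of -0.24 narrowly missed the threshold (adjusted p = 0.0511). CCND1, the cyclin of early G1, had the lowest value of this list against untreated cells, -0.33, which was not called. How many of these genes passed against untreated cells depended on single libraries. It was 25 of 32 without PBSL replicate 1, 9 without PBSL replicate 2 (with CCND1, named after its values were seen, lower), 10 without PBSL replicate 3 and 9 without untreated replicate 3. Against IL-1β alone the count ran from 26 to 32 over these fits. The first PBSL library had a mean over the list of 0.02 relative to untreated cells, and the others 0.42 and 0.33. A separate list of replication histones went the other way. Of 10 tested, 7 were higher with IL-1β alone (70%, against 16.2% of all tested genes). Against IL-1β alone 5 were lower with both agents (50%, against 11% of all tested genes) and 0 higher.

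Ribosome biogenesis and chaperones moved with both agents to a smaller extent. Of 20 tested genes of the MYC and nucleolar list, 13 were higher than in untreated cells and 0 lower, with 9 of them seen with both agents only. The share higher was 65%, against 22.3% of all tested genes. DKC1, which modifies ribosomal RNA, read 30.3, 28 and 26.8 in untreated cells, 29.7, 28.9 and 31.1 with IL-1β and 33.1, 37 and 38.1 with both agents, and its difference from IL-1β alone was not called without IL-1β replicate 1 or 2 or PBSL replicate 2 or 3 (adjusted p up to 0.0739). Without PBSL replicate 2, 7 of 20 were higher than in untreated cells and 0 were seen with both agents only. Without untreated replicate 3 these counts were 7 and 4, without untreated replicate 2 they were 9 and 5, without PBSL replicate 3 they were 9 and 2, and without any single IL-1β library 1 to 3 were seen with both agents only. MYC itself was not called (log2 fold change -0.05). Of 16 heat shock genes 10 were higher (62.5%, against 22.3% of all tested genes) and 2 lower (12.5%, under the 19.3% of all tested genes). The chaperones HSPA8, HSPH1 and HSPD1 were seen with both agents only, with log2 fold changes of 0.32, 0.48 and 0.41, while DNAJB4 and the small heat shock protein HSPB1 exceeded a decrease. HSPB1 read 1340.3, 1298 and 1358 in untreated cells, 1012, 1029.9 and 987 with IL-1β and 943, 725 and 654 with both agents. Its difference from IL-1β alone (adjusted p = 0.0182) was not called with no filter or without IL-1β replicate 1, IL-1β replicate 2, PBSL replicate 2 or PBSL replicate 3 (adjusted p up to 0.0705).

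**Figure D4:**
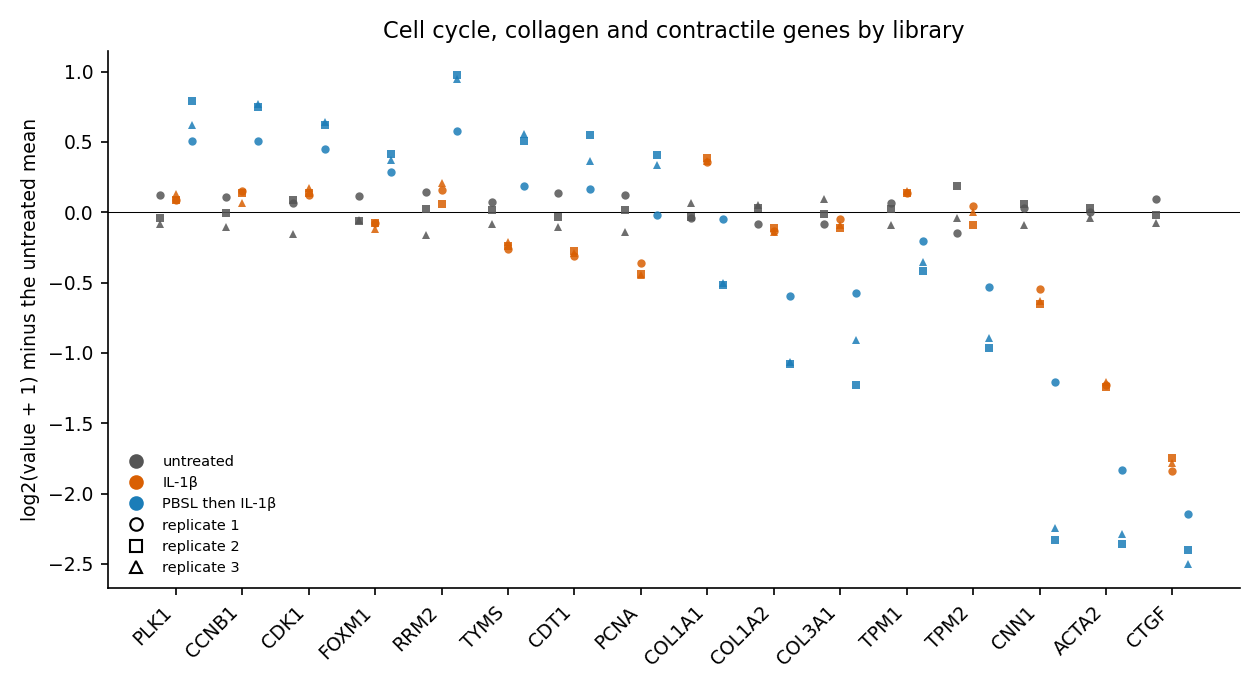
Log2(value + 1) of 16 genes minus the mean of the untreated libraries, in each of the 9 libraries, with colours and symbols as labelled. PLK1, CCNB1, CDK1, FOXM1 and RRM2 are higher with both agents than in all other libraries. TYMS, CDT1 and PCNA are lower in IL-1β libraries than in untreated ones, and higher with both agents than in IL-1β libraries. The collagen, tropomyosin and calponin genes are lowest with both agents, with replicate 1 nearest to the other groups.

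The actin and contractile list was lower almost throughout. Of 19 tested genes, 18 were lower than in untreated cells and 0 higher (median log2 fold change -0.40), and 16 were lower than with IL-1β alone. IL-1β alone lowered 6. In the classes 11 were seen with both agents only, 4 exceeded and 2 were kept, where 3.38% of all tested genes were lower with both agents only. Leaving out PBSL replicate 1 gave 19 of 19 lower, and leaving out any other single library gave between 14 and 17. In these fits between 6 and 10 were seen with both agents only.

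ACTA2, the smooth-muscle actin gene (chromosome 10, 88935074 to 88991339), read 141, 144 and 137 in untreated cells, 59.5, 58.7 and 60.3 with IL-1β and 38.7, 26.6 and 28 with both agents. It exceeded the IL-1β effect by 0.93 (SE 0.11, adjusted p = 0.00212), and the 3 groups were clear of each other. CNN1, calponin 1, read 47.5, 48.5 and 43.5 in untreated cells, 31.5, 29.2 and 29.6 with IL-1β and 19.6, 8.44 and 9.02 with both agents, and its IL-1β effect of -0.61 just missed the threshold (adjusted p = 0.0521). TPM1 and TPM2, which encode tropomyosins that coat actin filaments, were seen with both agents only. TPM1 read 863, 841 and 775 in untreated cells, 907, 909.8 and 917 with IL-1β and 716, 619 and 646 with both agents. ACTB, the cytoplasmic actin often used as a reference gene, was lower by 0.17 on the log2 scale (adjusted p = 0.0254), at 5813, 5466 and 5478 against 6339, 6514 and 6011.

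Targets of YAP and SRF, which respond to tension on the actin cytoskeleton, were lower in 9 of 13 and higher in 1, NT5E. These shares were 69.2% and 7.69%, against 19.3% and 22.3% of all tested genes. CTGF, also called CCN2 (chromosome 6, 131948176 to 131951373), read 62.7, 58.1 and 55.8 in untreated cells, 15.7, 16.8 and 16.4 with IL-1β and 12.5, 10.3 and 9.58 with both agents. Most of its fall was present with IL-1β alone, and it exceeded this by 0.56 (adjusted p = 0.00312). CYR61, or CCN1, differed: it read 267, 260.3 and 236 in untreated cells, 271, 272 and 265 with IL-1β and 218, 158 and 166 with both agents, a change seen with both agents only. FHL1, a LIM protein of muscle and fibroblasts, was among the largest decreases, at 181, 123 and 136 against 239, 235 and 236 with IL-1β and 661, 665 and 616 in untreated cells.

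Most collagens and other matrix genes were lower with both agents than with IL-1β alone. Of 28 tested genes of the fibrillar and pericellular list, 16 were lower than in untreated cells (57.1%) and 7 higher (25%), with a median log2 fold change of -0.28. Over all tested genes these shares were 19.3% and 22.3%. Against IL-1β alone 21 were lower (75%, against 11% of all tested genes) and 0 higher. The libraries with both agents differed. Averaged over the list, the log2 change from untreated cells was 0.06 in replicate 1, -0.17 in replicate 2 and -0.13 in replicate 3. Counts without single libraries are not given for this list. The classes were 8 with both agents only, 4 exceeded, 4 eased, 4 kept and 2 crossed. COL1A2, a chain of type I collagen, read 810.5, 881 and 893 in untreated cells, 785, 796 and 779 with IL-1β and 568, 407 and 410.1 with both agents (log2 fold change -0.91, SE 0.10, adjusted p = 3.48e-05). The untreated and IL-1β groups were 0.13 apart, which was not called. COL5A1, of the collagen that starts type I fibrils, read 164, 173 and 173 in untreated cells, 181, 185 and 183 with IL-1β and 137, 102 and 97.4 with both agents.

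COL1A1, the other chain of type I collagen (chromosome 17, 50183289 to 50201632), crossed: it read 1176, 1183 and 1269 in untreated cells, 1549, 1579 and 1559.9 with IL-1β and 1171, 845 and 853 with both agents. Replicate 1 with both agents lay just below the untreated libraries and the others well below. The decrease from untreated cells (-0.35, adjusted p = 0.0158) was not called without PBSL replicate 2 (adjusted p = 0.0692), PBSL replicate 3 (adjusted p = 0.0612) or untreated replicate 3 (adjusted p = 0.0594). The increase with IL-1β alone (0.37) was not called without untreated replicate 1 (adjusted p = 0.0528). The difference from IL-1β alone was -0.73 (SE 0.10, adjusted p = 0.00291). FN1, fibronectin, was eased, at 718, 788 and 783 in untreated cells, 1339, 1348 and 1322 with IL-1β and 984, 882 and 926 with both agents. The small proteoglycans DCN and LUM stayed far above untreated cells: DCN read 10.3, 12.4 and 12.7 in untreated cells, 131, 127 and 126 with IL-1β and 99.5, 84.2 and 93.9 with both agents. TGFBI, a TGF-β-induced matrix protein, was kept.

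Of 17 tested genes of collagen processing, 4 were higher (23.5%) and 6 lower (35.3%) than in untreated cells, against 22.3% and 19.3% of all tested genes. Against IL-1β alone 13 were lower (76.5%, against 11% of all tested genes). PLOD2, a collagen lysyl hydroxylase, read 83.6, 85.9 and 80.1 in untreated cells, 279, 289 and 289 with IL-1β and 238, 165 and 201 with both agents, and LOX, which crosslinks collagen, 129, 133 and 142 in untreated cells, 289.9, 314 and 307 with IL-1β and 240.1, 172 and 193 with both agents. SERPINH1, the collagen chaperone HSP47, was seen with both agents only, at 352, 286 and 269 against 389.8, 395 and 405 in untreated cells. In the TGF-β and BMP list 10 of 18 genes were lower than in untreated cells (55.6%, against 19.3% of all tested genes). A further 4 were higher (22.2%), near the 22.3% of all tested genes. ID2, a target of BMP signalling, read 32.9, 35.4 and 37.8 in untreated cells, 39.1, 42.3 and 38.1 with IL-1β and 27.8, 28.5 and 28.1 with both agents, with all libraries of both agents below all others, while BMP2 and INHBA stayed higher, with log2 fold changes of 1.51 and 1.48.

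**Figure D5:**
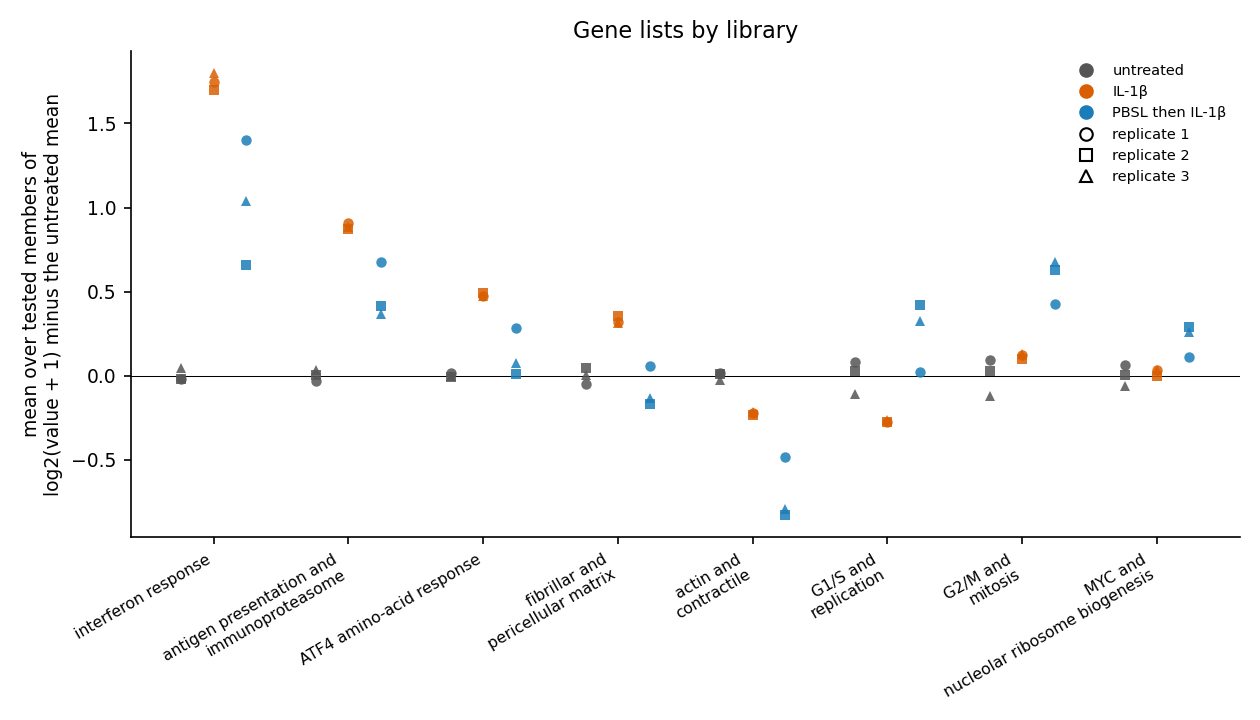
Mean over the tested members of 8 gene lists of log2(value + 1) minus the mean of the untreated libraries, for each of the 9 libraries. With both agents the interferon and antigen presentation lists lie between untreated and IL-1β libraries, the ATF4 list is near the untreated level in replicates 2 and 3 (0.01 and 0.07), the G2/M list is above all other libraries, and replicate 1 lies nearest to the IL-1β libraries in all 8 lists.

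Outside these lists, the naming rule picked further genes seen with both agents only. CGB5, a chorionic gonadotropin chain, read 29.3, 29.9 and 28.9 in untreated cells, 31.3, 29.3 and 33.6 with IL-1β and 16.6, 13.1 and 12.2 with both agents, and was among the 7 such genes at least 2-fold lower. It is nearly identical to CGB8 and its value is uncertain. The other 6, named after their values were seen, were CNN1, CALD1, EDN1, PLEKHG4, SLC16A4 and SULT1A1, with log2 fold changes from -1.93 to -1.01. EDN1, which encodes the vasoconstrictor endothelin 1, read 16.3, 15.7 and 15.1 in untreated cells, 11.8, 13.3 and 13.7 with IL-1β and 9.26, 5.44 and 6.54 with both agents. Among exceeded genes, SELENOW, a small selenoprotein, read 213, 214 and 218 in untreated cells, 179, 178 and 173 with IL-1β and 107, 102 and 80.6 with both agents. Its IL-1β effect (adjusted p = 0.0247) was not called with no filter or without any single IL-1β or untreated library (adjusted p up to 0.0801), which would place it among genes seen with both agents only. STC1, the secreted hormone stanniocalcin 1, rose further, at 4.22, 4.29 and 4.32 in untreated cells, 10.3, 10.6 and 11.4 with IL-1β and 14.4, 23.9 and 21.3 with both agents.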

How the data were processed

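RNA from SW1353 cells was sequenced after library preparation with the MGIEasy directional kit, per the labels' protocols, in 3 libraries for each of 3 groups. The deposited table holds 1 signal value per gene symbol and library, made by the authors with Trim Galore, STAR and HTSeq on build hg38, per the submitters' processing notes, which give no versions. The step from counts to these values is not stated, so no count test was run and read depth is unknown. Steps between low values, taken as the worth of 1 read, were between 0.89 and 1.09 of those in the first untreated library. Each ratio is the most frequent one, from a narrow bin that held only 39 to 70 of the 1144 to 1316 low genes compared. The ratios are therefore a rough guide. A larger step means fewer reads, so relative depth runs inversely to these ratios. Samples were grouped by their labels.

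Values were tested as log2(value + 1) with limma 3.58.1 in R 4.3.3 (empirical Bayes with a variance trend, 6 residual degrees of freedom, two-sided, Benjamini-Hochberg over the 11924 tested genes, threshold 0.05), for 3 comparisons among 3 groups. An exact permutation test of 3 libraries against 3 cannot go below p = 0.1 and was not used. Tables were computed in Python 3.11.15 (pandas 2.3.3, numpy 2.4.6) and plots drawn in matplotlib 3.10.9. The script was tested on simulated data. Of the table's entries 27 carry a date in place of a symbol (20 of them tested) and are not named, and 28 repeat a symbol (15 tested). SOD2 is listed in 2 entries, of which the higher was used. Gene positions are from GENCODE 29 and promoters from RefSeq GRCh38.p14, taking the first listed start.

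The comparison and the 52 gene lists (969 entries, 957 matched, 813 tested) were chosen with earlier results of these data known. Named genes are the largest changes, those with the smallest p in each class and list, and a set of 13 known IL-1β and cartilage genes. Further list members, such as PLK1, CCNB1, CDK1, PCNA, COL1A2 and CNN1, were named after their values were seen. Alternatives were other filters (none, or a value of 5), a pseudocount of 0.1, median-ratio rescaling, no variance trend, only the 6 libraries compared, a replicate block, a 1.2-fold minimum, and leaving out each library. Counts per list under these settings, and the CHR and CArG motifs, were added after seeing the data.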

Additional observations from a re-analysis of the deposited data

Results flagged for a closer look

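In 12 genes the change from untreated cells was called in one direction with IL-1β alone and in the other with both agents, and the difference between the treated groups was also called by limma. They are the crossed genes with the smallest p for that difference and a group mean of at least 5. The largest difference among those higher with both agents than with IL-1β was in CDT1, a factor that licenses replication origins, at 0.65 on the log2 scale. CDT1 read 11.3, 9.87 and 9.36 in untreated cells, 7.96, 8.23 and 8.1 with IL-1β and 11.5, 15.3 and 13.3 with both agents. Other genes linked to replication or DNA repair were DONSON (0.51), RMI2 (0.58) and WDHD1 (0.51).

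ELOVL6, which lengthens fatty acids, differed by 0.59, reading 12.4, 11.7 and 11.4 in untreated cells, 8.96, 9.06 and 9.28 with IL-1β and 13.2, 14.4 and 15.1 with both agents. The mitochondrial chaperonin gene HSPE1 differed by 0.58, TMEM97 by 0.57, ICMT, which methylates prenylated proteins, by 0.41 and PMP22 by 0.37. In the opposite direction, COL1A1 was -0.73 with both agents relative to IL-1β alone, the keratin gene KRT86 -0.62 and the clathrin heavy chain gene CLTCL1 -0.43.

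The difference between the treated groups stayed called for all 12 in every fit that left out a library. The change from untreated cells did not for COL1A1, KRT86, CLTCL1, RMI2 and WDHD1, whose highest adjusted p over the alternatives other than the 1.2-fold minimum was 0.0692, 0.126, 0.108, 0.133 and 0.0809 in that order. The change with IL-1β alone was lost in at least 1 alternative for CDT1, DONSON, HSPE1, ICMT, PMP22, TMEM97, COL1A1 and KRT86. Of the 12 genes, ELOVL6 kept all 3 calls in these alternatives. KRT86 resembles KRT81 closely and its value is uncertain.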

How the results depend on the processing

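Of 216 named genes, 198 were called between both agents and untreated cells. Of these, 189 kept that call under every alternative except the 1.2-fold minimum, and 0 reversed. This does not cover the calls against IL-1β alone, which set the classes. The 1.2-fold minimum, applied to each comparison, gave 628 higher and 676 lower genes, 784 kept, 5 eased, 1 exceeded, 3 seen with both agents only, 511 unresolved, 0 crossed, 0 returned and 288 lapsed (called with IL-1β only, with no difference called between the treated groups), and 0 genes seen with both agents only whose IL-1β effect had a 95% interval within 1.2-fold (bounded). Many genes changed class under it. Of the kept genes 552 were kept before, of those seen with both agents only 1 was in that class before, and 0 of the unresolved and 0 of the lapsed genes were in theirs. Fitting only the 6 libraries compared gave 699 unresolved and 11 crossed genes, and no filter gave 14 crossed.

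Same-numbered libraries did not deviate together (correlations of deviations from -0.225 to 0.0681), so the replicate numbers were not taken as pairs. With the replicate block 2410 genes were higher, 2125 lower, 14 crossed, and 422 of the genes seen with both agents only had a bounded IL-1β effect, against 634 without it.

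Leaving out single libraries gave 2055 to 2948 higher and 1857 to 2465 lower genes, 1714 to 2403 kept, 134 to 318 eased, 127 to 539 exceeded, 555 to 1685 seen with both agents only (198 to 1212 of them bounded), 845 to 1720 unresolved, 6 to 186 crossed, 219 to 701 returned and 459 to 1041 lapsed. PBSL replicate 1 set the upper end for eased, exceeded, both agents only, crossed and returned genes. Each IL-1β library, when left out, lowered exceeded genes to between 127 and 129 and crossed genes to between 6 and 8. Median-ratio rescaling gave 2395 higher and 2497 lower genes, so 49% of calls were higher against 53.5%. Because the unit and the reads behind each value are unknown, no counting error could be given.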

Other observations

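Genes of redox defence moved in both directions, with more of them lower. Of 25 tested NRF2 targets, 6 were higher (24%) and 13 lower (52%) with both agents than in untreated cells (median log2 fold change -0.15). Over all tested genes these shares were 22.3% and 19.3%. Against IL-1β alone 9 were lower (36%, against 11% of all tested genes) and 1 higher. NQO1, a quinone reductase, read 616, 594 and 596 in untreated cells, 369.7, 364 and 358 with IL-1β and 334, 281 and 317 with both agents, and its difference from IL-1β alone was not called without any single IL-1β library or PBSL replicate 2 (adjusted p up to 0.0729). AKR1B10, an aldo-keto reductase, read 33.4, 33.3 and 38.6, then 12.5, 12.7 and 13 with IL-1β and 11.1, 7.62 and 8.24 with both agents. HMOX1, which degrades haem, moved the other way, from 45.8, 45.8 and 46.5 in untreated cells to 94.4, 85.9 and 81.7 with both agents, beside 88.1, 90.5 and 88.8 with IL-1β. Of 26 oxidative phosphorylation genes, 13 were lower with IL-1β alone (50%, against 16.0% of all tested genes). With both agents 6 were lower (23.1%), near the 19.3% of all tested genes, and 2 higher (7.69%, against 22.3%).

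Among growth factors, 9 of 20 were higher (45%) and 7 lower (35%) than in untreated cells, against 22.3% and 19.3% of all tested genes. VEGFA, which drives blood vessel growth, was kept, at 119, 133 and 116 with both agents against 105, 108 and 108 with IL-1β and 44.2, 54.3 and 49 in untreated cells. ITGA11, the collagen-binding integrin α11 chain, was lower with both agents than with IL-1β alone, reading 48.9, 53.1 and 56.9 in untreated cells, 40.8, 40.0 and 40.7 with IL-1β and 31.6, 20.6 and 24.3 with both agents. Sterol synthesis genes were lower than in untreated cells in 9 of 24 (37.5%, against 19.3% of all tested genes) and higher in 2 (8.33%, against 22.3%).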
